A study of Mus musculus with 35 samples.

Results

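Glucose uptake and glycolytic control genes were followed in bone marrow-derived macrophages (BMDMs), as 10 genes chosen by symbol from the 47069 gene IDs with values: the glucose transporter Slc2a1, the hexokinases Hk1, Hk2 and Hk3, the phosphofructokinase regulator Pfkfb3, the phosphofructokinase subunits Pfkl and Pfkp, and Pgk1, Pkm and Ldha. All 10 were found, and all 10 passed the filter on low values that left 11354 genes for testing. Marrow from C57BL/6 mice, wild type (WT) or labelled AMPKα1-/-, was differentiated with L929 conditioned medium, which supplies macrophage colony stimulating factor. The cells were then kept for 24 h with vehicle (DMSO), 100 nM dexamethasone (Dex, a synthetic glucocorticoid), 100 ng/ml lipopolysaccharide (LPS, a bacterial wall component), 1 µg/ml damage-associated molecular patterns (DAMPs), LPS + Dex or DAMPs + Dex. Each of the 12 groups had 3 RNA-seq libraries except WT with LPS, which had 2, so 35 libraries were compared. How the AMPKα1 allele was made and what the DAMPs contained was not given in the sources used here. Values are FPKM, fragments scaled to gene length and to the mapped fragments of the library, and libraries held 15837211 to 31955307 fragments as read from the smallest steps of the values.

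Glucose enters macrophages through facilitative transporters, of which Slc2a1 (GLUT1) is the main one known in activated cells, and hexokinases trap it as glucose 6-phosphate. Phosphofructokinase then commits the sugar to glycolysis, and its strongest activator, fructose 2,6-bisphosphate, is made by PFKFB3. Pgk1 and Pkm encode the enzymes of the ATP-yielding steps, and Ldha encodes the lactate dehydrogenase subunit that favours making lactate from pyruvate. Activation by LPS is known to shift macrophages towards glycolysis, and glucocorticoids act through a nuclear receptor that changes transcription.

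The gene named by the genotype was checked first. Prkaa1, which encodes AMPKα1, was at 15.9, 11.8 and 15.3 FPKM in the WT vehicle libraries and at 14.8, 16.5 and 15.4 FPKM in the vehicle libraries labelled AMPKα1-/-. The groups overlapped (log2 difference 0.12 ± 0.23 SE, limma adjusted p = 1), and a summed gene value does not show whether an exon is missing. The label is therefore used as given. The LPS and Dex labels were checked with their own target genes. Il1b, an LPS-induced cytokine gene, was at 3.77, 5.67 and 5.45 FPKM with vehicle and at 13932 and 16653 FPKM with LPS in WT cells, and Fkbp5, a glucocorticoid receptor target, was at 1.60, 1.91 and 2.23 FPKM with vehicle and at 321, 355 and 346 FPKM with Dex. In both genotypes, all 4 LPS genes checked (Il1b, Cxcl10, Nos2 and Il6) rose with LPS and all 4 Dex genes checked (Tsc22d3, Fkbp5, Per1 and Zbtb16) rose with Dex. No list of DAMPs targets was used, so the DAMPs label is used as given, and with DAMPs against vehicle 0 of the 4 LPS genes and 0 of the 4 Dex genes passed in either genotype (limma, with 1 LPS gene in AMPKα1-/- cells and 1 Dex gene in each genotype at an unadjusted p below 0.05).

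The cell type was checked in the same way. All 8 macrophage markers were present, their summed level ran from 15411 to 40584 FPKM over the 35 libraries, and lysozyme (Lyz2) was the most abundant. T cell and erythroid markers (4 genes each) summed to at most 0.259 and 0.303 FPKM. B cell and dendritic cell markers summed to at most 3.19 and 1.69 FPKM, and fibroblast markers to at most 24.4 FPKM. Of 9 neutrophil markers, S100a8 reached 617, 478 and 1147 FPKM in the WT LPS + Dex libraries and 307, 301 and 581 FPKM in the AMPKα1-/- ones, against at most 33.0 FPKM in the other groups, while the defining genes Ly6g, Mpo and Elane stayed below 1 FPKM in every library. Of the 5 neutrophil markers that passed the filter, 1 was higher (S100a8) and 1 lower (Camp, an antimicrobial peptide gene) for LPS + Dex against LPS in each genotype, with a median log2 change of −0.17 in WT and −0.12 in AMPKα1-/- cells beside −0.03 and 0.01 over all genes tested. Camp was at 113 and 133 FPKM in the WT LPS libraries and at 32.9 to 52.1 FPKM with LPS + Dex. Against vehicle, LPS + Dex gave 2 higher (S100a8 and Camp) and 1 lower (Ltf, the lactoferrin gene) in each genotype, with medians of −0.96 and −0.43. LPS alone raised 2 of the 5 in WT, and raised 2 and lowered 1 in AMPKα1-/- cells. With Dex on DAMPs, 2 of the 5 fell in AMPKα1-/- cells (median −0.95) and 0 passed in WT. Of 3 fibroblast markers tested, Dex on DAMPs raised 2 in WT (median 1.25) and 0 in AMPKα1-/- cells, and LPS raised 1 in each genotype. The all-gene shares passing in WT and AMPKα1-/- cells were 55.7% and 64.3% for LPS, and 24.3% and 25.3% for Dex on DAMPs. They were 34.1% and 37.7% for LPS + Dex against LPS, and 54.2% and 57.4% for LPS + Dex against vehicle. The part of the marker genes in the changes below was not tested.

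Libraries within a group correlated at 0.987 to 0.997 (Pearson, log2 values). The AMPKα1-/- LPS libraries were spread widely in the genes followed here. AMPKα1-/- LPS replicate 3 lay below the mean of the other AMPKα1-/- LPS libraries in 9 of the 10 genes and in 11 of 13 further glycolytic enzymes, with a median log2 deviation of −0.41 and −0.69 against −0.03 over all genes tested. Its Ldha level was 813 FPKM beside 1707 and 2139.6 in the others, and its Il1b level was 11233 beside 15096 and 13839. Saa3 was the most abundant gene in replicates 1 and 2 of that group, at 5.51% and 7.58% of summed FPKM. In replicate 3 it was not, and Fth1 led at 4.01%. Whether the LPS response of replicate 3 was weaker in general was not tested. AMPKα1-/- LPS replicate 2 lay the other way, above the mean of the others in all 10 genes (median 0.43, further enzymes 0.47, all genes 0.09). AMPKα1-/- LPS + Dex replicate 3 was low in 9 of the 10 genes (median −0.31, all genes −0.14). Over all genes, WT LPS + Dex replicate 3 stood farthest from its group, with a median log2 deviation of −0.21 and a median absolute deviation of 0.32, a correlation of 0.987 with replicate 1 and the highest Saa3 share (24.0% of summed FPKM), while its median over the 10 genes was −0.14, with 6 of them below the others. Values without these libraries are given where they change a call.

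The 10 genes lie on 8 chromosomes. In build GRCm38 they are Slc2a1 at chr4:119108711-119137983 on the plus strand, Hk1 at chr10:62268855-62379908 (minus), Hk2 at chr6:82725025-82774454 (minus), Hk3 at chr13:55005985-55021385 (minus), Pfkfb3 at chr2:11471433-11554077 (minus), Pfkl at chr10:77986947-78010083 (minus), Pfkp at chr13:6579768-6648777 (minus), Pgk1 at chrX:106187100-106203699 (plus), Pkm at chr9:59656368-59679375 (plus) and Ldha at chr7:46841475-46855627 (plus). Their promoters were read because several members moved together with LPS, as did Hif1a (described below), whose product with ARNT binds the letters ACGTG. These letters, on either strand, occurred in the 250 bases before the RefSeq start of 6 of the 10 genes (Slc2a1, Hk2, Hk3, Pfkfb3, Pgk1 and Ldha), and in 16.6% of all 32851 promoters. Pkm has 2 RefSeq starts, and the letters occurred before the one not used here, which makes 7 of the 10 genes with a match at some start. The letters also lie inside the E-box CACGTG, which other factors bind. One stretch of 30 bases (GRCm38.p6, RefSeq, 5′ to 3′ on the gene's strand) is shown for 4 of them, with ACGTG or its reverse complement CACGT in capitals.
Hk2, chr6:82774490-82774519, outside the annotated gene: caatgagcacatcCACGTcactgtccgggg
Hk3, chr13:55021525-55021554, outside the annotated gene: tactacattttgaCACGTtgcctagttcaa
Pgk1, chrX:106186947-106186976, outside the annotated gene: aggACGTGacaaatggaagtagCACGTctc
Ldha, chr7:46845750-46845779, in an intron of the annotated gene: agcctaCACGTGggttcccgCACGTccgct
Pgk1 and Ldha each carry the letters more than once in the stretch shown, and Hk2 and Hk3 once. The palindromic glucocorticoid receptor element, searched as GNACANNNTGTNC, was in none of the 10 windows of 250 bases and in 0.387% of all promoters. A match describes letters and does not show binding. The all-promoter shares count every RefSeq start, not the start chosen for each gene as done for the 10. The 10 genes were also picked as glycolytic genes, so setting their matches beside these shares does not test a link to Hif1a.

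LPS raised most of the 10 genes and Dex divided them. Against vehicle, LPS raised 9 of the 10 in WT and 8 of the 10 in AMPKα1-/- cells, Pfkfb3, Hk2, Pfkl and Slc2a1 most. Dex alone raised Pfkfb3 and, in WT cells, Hk2, and lowered Slc2a1, Hk3, Pfkp, Pgk1, Pkm and Ldha in both genotypes. Dex added to LPS raised Pfkfb3 further, up to 863 FPKM, raised Pfkl, and lowered Slc2a1, Hk3 and Pfkp, while Pgk1, Pkm and Ldha did not pass the test there. For DAMPs alone only the fall of Slc2a1 passed. None of the 10 genes passed the test of a genotype difference in its response.

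The counts stand against a broad response of all genes (limma across the 12 groups, Benjamini-Hochberg adjusted p below 0.05). In WT cells 55.7% of all genes tested passed for LPS against vehicle (19.9% higher and 35.8% lower), and the 9 members called were all higher. The AMPKα1-/- share was 64.3% (20.2% higher and 44.1% lower), and the 8 members called were all higher. For Dex against vehicle, 2 members were higher and 6 lower in WT (30.9% of all genes, 15.9% higher and 14.9% lower) and 1 higher and 6 lower in AMPKα1-/- cells (27.9%, 11.9% higher and 16.0% lower). For LPS + Dex against LPS, 2 were higher and 3 lower in each genotype (34.1% of all genes in WT, 16.6% higher and 17.5% lower, and 37.7% in AMPKα1-/- cells, 19.3% higher and 18.4% lower). DAMPs against vehicle gave 1 lower member in each (2.01% of all genes in WT, 1.22% higher and 0.793% lower, and 4.13% in AMPKα1-/- cells, 1.89% higher and 2.24% lower), and DAMPs + Dex against DAMPs gave 3 higher and 4 lower in WT (24.3%, 11.7% higher and 12.6% lower) and 3 higher and 3 lower in AMPKα1-/- cells (25.3%, 13.1% higher and 12.2% lower). The last count was 4 to 5 members when any 1 of the 6 libraries compared was left out. Against vehicle, LPS + Dex gave 7 higher members and 1 lower in each genotype (54.2% of all genes in WT, 17.2% higher and 37.0% lower, and 57.4% in AMPKα1-/- cells, 16.7% higher and 40.8% lower). The median change of the members for LPS was 1.38 on the log2 scale in WT and 1.24 in AMPKα1-/- cells, beside −0.19 and −0.30 over all genes tested. The share of FPKM taken by single genes moved with treatment, with Saa3 at 16.0% to 24.0% of the sum in LPS + Dex libraries, and setting all libraries to one median (centring) changed the split of all calls for LPS in WT from 35.7% to 46.3% higher. The same step moved the share of higher calls from 31.4% to 49.0% for LPS in AMPKα1-/- cells, and from 31.7% to 50.3% and from 29.0% to 50.9% for LPS + Dex against vehicle in WT and AMPKα1-/- cells. Centring also turned the majority of calls from lower to higher for Dex in AMPKα1-/- cells (42.8% to 51.9% higher), LPS + Dex against LPS in WT (48.7% to 56.2%) and DAMPs in AMPKα1-/- cells (45.8% to 55.6%), and from higher to lower for Dex in WT (51.6% to 45.0%) and DAMPs + Dex against DAMPs in AMPKα1-/- cells (51.6% to 46.0%). Fold changes below are on the log2(FPKM + 1) scale. In bulk RNA, fewer cells of one kind and less RNA per cell cannot be told apart.

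**Figure D1:**
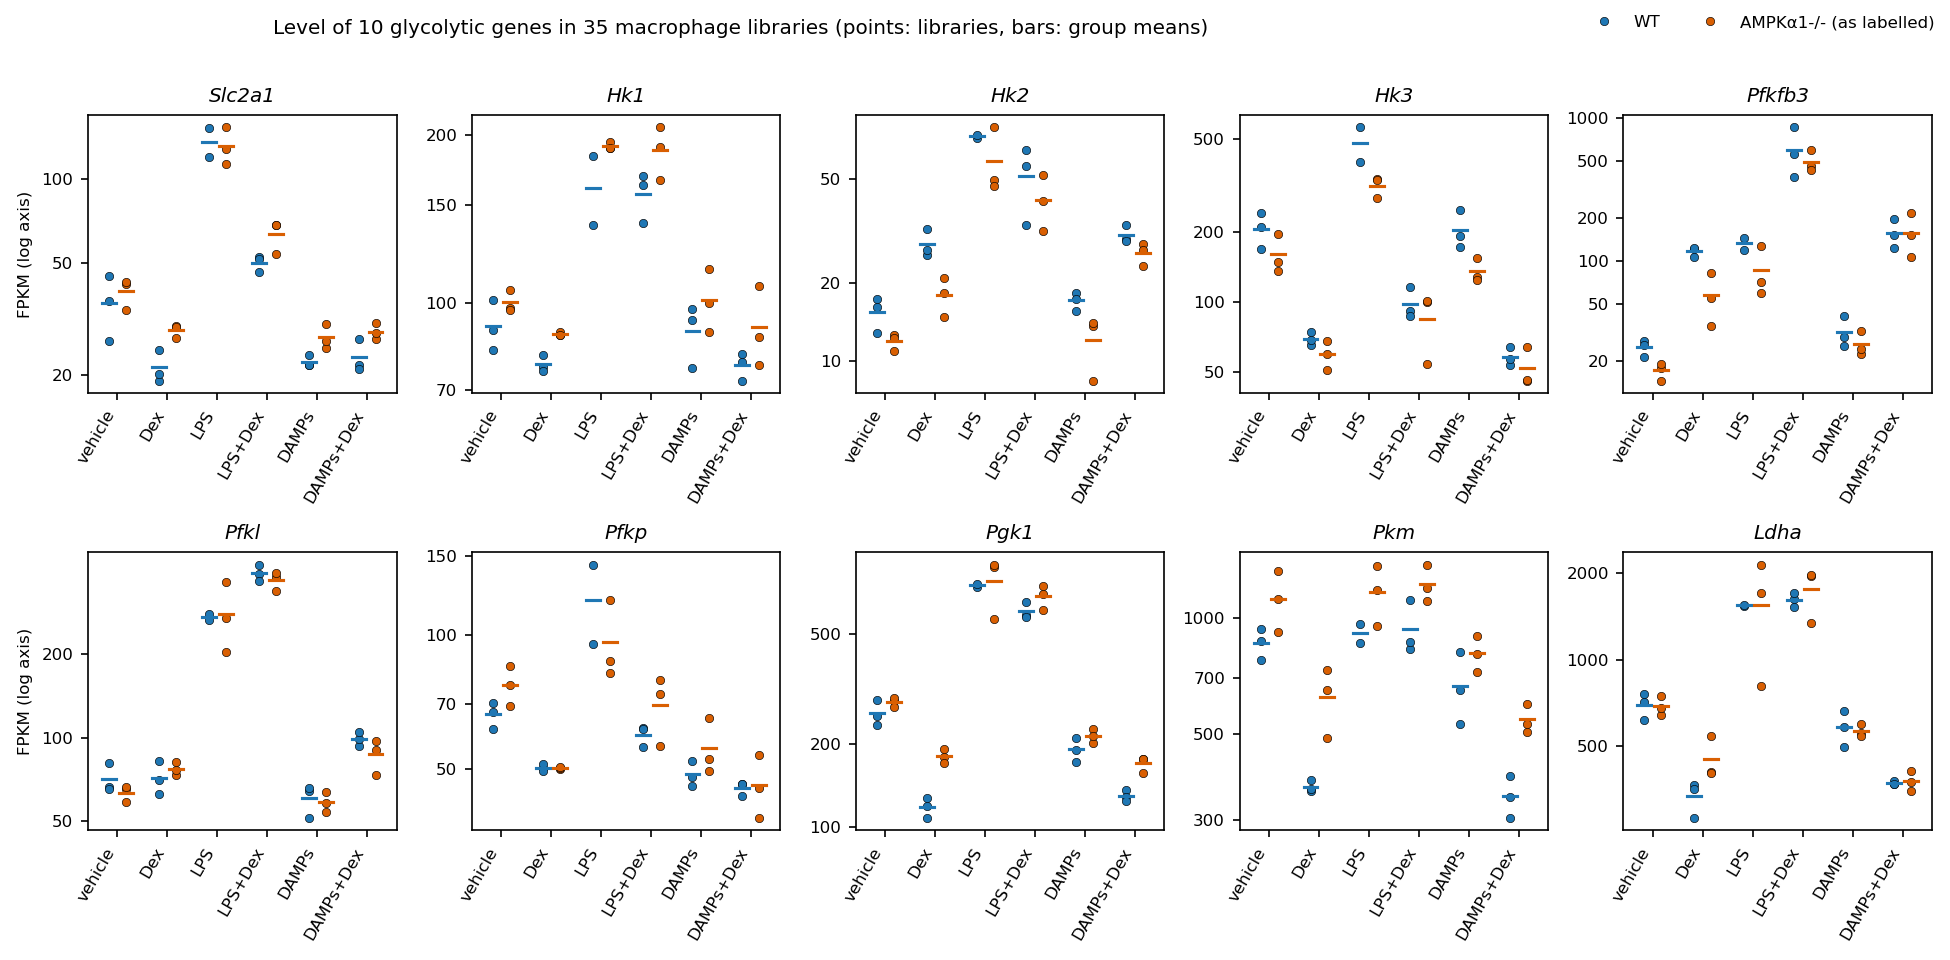
Level of each of the 10 genes in FPKM (log axis) by treatment, with 1 point per library, a bar at the group mean, WT in blue and libraries labelled AMPKα1-/- in orange. Pfkfb3 is highest with LPS + Dex (389 to 863 FPKM in WT), Hk3 and Slc2a1 are highest with LPS, and the points of both genotypes overlap in many groups.

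**Figure D2:**
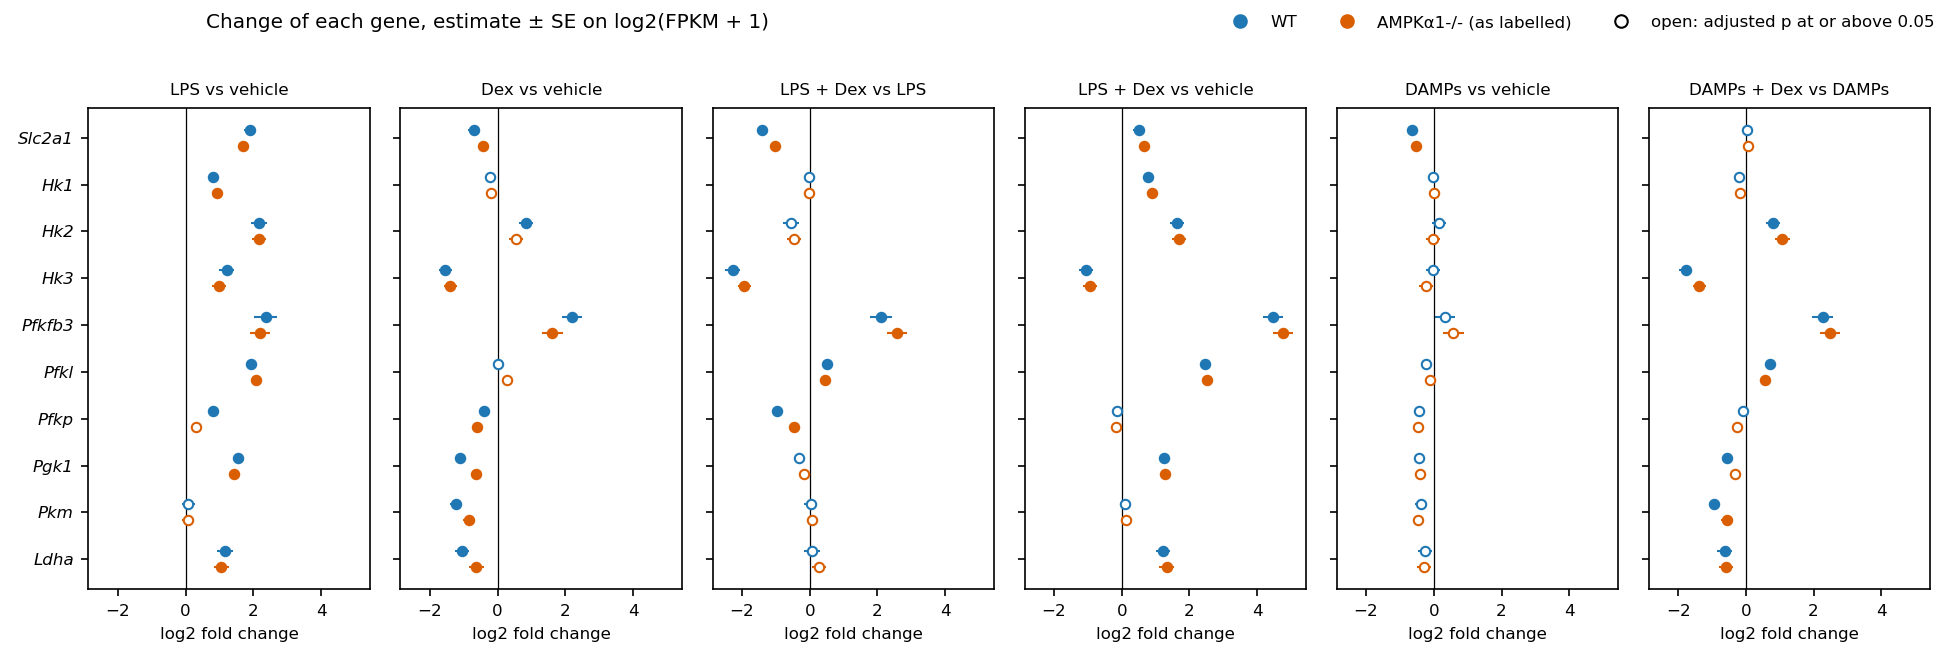
Log2 fold change of each gene in the 6 treatment comparisons, as estimate ± SE from limma on log2(FPKM + 1), WT in blue and AMPKα1-/- in orange, with open circles where the adjusted p was 0.05 or more. LPS moved every filled gene to the right, Dex moved Pfkfb3 to the right and Hk3 to the left with or without LPS or DAMPs, and DAMPs alone left only Slc2a1 filled.

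The glucose transporter rose with LPS and fell with Dex. In WT cells Slc2a1 was at 36.9, 26.5 and 45.0 FPKM with vehicle, 119.5 and 151 with LPS, and 52.6, 46.5 and 51.8 with LPS + Dex. AMPKα1-/- libraries were at 34.2, 42.3 and 42.9 FPKM with vehicle, 127, 152 and 112 with LPS, and 68.6, 68.5 and 53.8 with LPS + Dex. The 3 treatments did not overlap in either genotype, and LPS + Dex lay between vehicle and LPS. Against vehicle, LPS + Dex raised Slc2a1 in WT by 0.50 ± 0.15 on the log2 scale (limma adjusted p = 0.00669). That call was lost with only the groups compared (adjusted p = 0.0712) and without WT vehicle replicate 2 (0.30, adjusted p = 0.0947). LPS raised Slc2a1 by 3.72-fold in WT (log2 1.90 ± 0.17 SE, adjusted p = 1.65e-10, limma) and 3.21-fold in AMPKα1-/- cells. Adding Dex to LPS lowered it by 2.64-fold (adjusted p = 1.26e-07) and 2.03-fold (adjusted p = 2.74e-06). Dex alone gave 19.1, 20.2 and 24.6 FPKM in WT and 29.9, 27.1 and 29.7 FPKM in AMPKα1-/- cells, log2 changes of −0.71 ± 0.15 (adjusted p = 0.000624) and −0.44 ± 0.15 (adjusted p = 0.0277, but 0.0609 with centring and 0.0541 with no filter). The second was lost without Dex replicate 2 or vehicle replicate 2 or 3 of that genotype (−0.40 to −0.39). With DAMPs it was at 21.8, 23.5 and 21.7 FPKM in WT and 24.9, 30.5 and 26.5 FPKM in AMPKα1-/- cells, below every vehicle library. That fall passed the test (WT −0.64 ± 0.15, adjusted p = 0.0209, AMPKα1-/- −0.52 ± 0.15, adjusted p = 0.0424) but not when only the vehicle and DAMPs libraries were fitted (adjusted p = 0.361 and 0.0828), and in AMPKα1-/- cells not with centring (−0.46, adjusted p = 0.0748) or no filter (adjusted p = 0.0775). Both calls were also lost without replicate 1 or 3 of the DAMPs libraries, without WT vehicle replicate 1 or 3 (−0.47 without replicate 3, adjusted p = 0.199), and without AMPKα1-/- vehicle replicate 2 or 3 (−0.47 without replicate 3, adjusted p = 0.216). Dex made little difference to Slc2a1 on top of DAMPs (log2 0.05 ± 0.15 and 0.07 ± 0.15).

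The 3 hexokinase genes parted under Dex. Hk1, the broadly expressed form, rose with LPS and did not pass the test in any of the 3 Dex comparisons, Hk2, the inducible form, rose with LPS and, in WT cells, with Dex alone, and Hk3, a form found mainly in myeloid cells, rose with LPS and fell with Dex everywhere. Hk2 was at 17.4, 12.8 and 16.1 FPKM with vehicle in WT cells, 25.5, 32.3 and 26.7 with Dex, and 72.0 and 73.8 with LPS. AMPKα1-/- libraries were at 11, 12.6 and 12.3 FPKM with vehicle, 18.3, 14.9 and 20.9 with Dex, and 49.7, 78.8 and 46.8 with LPS. Neither Dex nor LPS groups overlapped vehicle. LPS raised Hk2 4.53-fold in WT (adjusted p = 8.30e-09) and 4.48-fold in AMPKα1-/- cells (adjusted p = 8.47e-10). Dex alone raised it 1.78-fold in WT (log2 0.83 ± 0.21, adjusted p = 0.00366), and the AMPKα1-/- estimate of 0.55 ± 0.21 did not pass (adjusted p = 0.0545). The latter passed with centring (0.63, adjusted p = 0.00329), quantile normalization (0.64, adjusted p = 0.00479) and only the groups compared (adjusted p = 0.0202). It also passed without Dex replicate 2 (0.67, adjusted p = 0.0407).

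With LPS present the Hk2 response to Dex was not an increase. LPS + Dex gave 64.4, 56.0 and 33.4 FPKM of Hk2 in WT and 41.1, 51.8 and 31.6 FPKM in AMPKα1-/- cells. All 3 WT libraries lay below the WT LPS libraries, and the AMPKα1-/- groups overlapped. The changes of −0.55 ± 0.24 and −0.47 ± 0.21 did not pass (adjusted p = 0.074 and 0.0803), but passed with centring as falls of 0.48 and 0.46 (adjusted p = 0.0374 and 0.0217). They also passed without WT LPS + Dex replicate 1 (−0.74), AMPKα1-/- LPS replicate 3 (−0.61) or AMPKα1-/- LPS + Dex replicate 2 (−0.64). With DAMPs, by contrast, Dex took Hk2 from 18.3, 15.7 and 17.4 FPKM to 29.4, 28.9 and 33.4 in WT cells (adjusted p = 0.00525), and from 8.44, 13.6 and 14 to 28.1, 23.2 and 26.8 FPKM in AMPKα1-/- cells (adjusted p = 0.000281).

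Hk3 was the most abundant hexokinase transcript with vehicle. It stood at 209, 169 and 242 FPKM with vehicle in WT cells, 65.6, 74.4 and 68.6 with Dex, 400.4 and 561 with LPS, and 91.8, 116 and 87.4 with LPS + Dex. The AMPKα1-/- values were 148, 136 and 195 FPKM with vehicle, 68.2, 60.1 and 50.8 with Dex, 279, 336 and 333 with LPS, and 99.9, 101 and 54.3 with LPS + Dex. Every library with Dex lay below every vehicle library of its genotype, LPS or not. Adding Dex to LPS lowered Hk3 4.82-fold in WT (log2 −2.27 ± 0.22, adjusted p = 3.91e-09) and 3.82-fold in AMPKα1-/- cells (log2 −1.93 ± 0.20, adjusted p = 6.62e-09), the largest falls among the 10 genes in those comparisons. With DAMPs present Dex took it from 172, 192 and 247 to 63.8, 53.8 and 57.0 FPKM in WT (log2 −1.78 ± 0.20) and lowered it by 1.37 ± 0.20 on the log2 scale in AMPKα1-/- cells.

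Hk1 ranged from 72.8 to 206 FPKM over all libraries. It was at 82.6, 101 and 89.6 FPKM with vehicle in WT, at 138 and 183 with LPS and at 162, 169 and 139 with LPS + Dex, so LPS with or without Dex gave higher values than vehicle alone. LPS raised it 1.74-fold in WT (adjusted p = 1.13e-05) and 1.89-fold in AMPKα1-/- cells (adjusted p = 1.79e-07). Adding Dex to LPS moved it by −0.03 ± 0.13 and −0.03 ± 0.12 on the log2 scale, and the sign of both estimates turned with quantile normalization (0.088 and 0.13).

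The makeup of the hexokinase sum therefore differed by treatment. FPKM is scaled for gene length, so the 3 genes can be set against each other. Hk3 made up 65.6% ± 5.20 (SD, n = 3) of Hk1 + Hk2 + Hk3 with vehicle in WT cells, 39.6% ± 1.07 with Dex and 32.2% ± 2.89 with LPS + Dex, whereas Hk1 made up 29.4% ± 5.49, 44.4% ± 2.53 and 51.3% ± 2.02. The share of Hk2 was 4.93% ± 0.604 with vehicle, 10.4% ± 1.97 (n = 2) with LPS, 16.0% ± 1.46 with Dex and 16.5% ± 3.68 with LPS + Dex. Across both genotypes Dex raised the Hk2 share by 8.79 percentage points without LPS, by 4.48 points with LPS and by 11.8 points with DAMPs. Exact two-sided permutation tests within genotype gave p = 0.005 for Dex against vehicle and for DAMPs + Dex against DAMPs (the smallest these permutations can give, adjusted over 10 share tests to 0.00714) and p = 0.035 for LPS + Dex against LPS (adjusted 0.0389). The last did not pass without AMPKα1-/- LPS replicate 3 (3.98 points, adjusted p = 0.0667) or without replicate 1 of that group, AMPKα1-/- LPS + Dex replicate 2, either WT LPS library or any of the 3 WT LPS + Dex libraries. LPS alone raised the Hk2 share by 5.67 points (exact permutation p = 0.005). DAMPs alone moved it by 0.568 points (exact permutation p = 0.3). The hexokinase sum itself was 313 ± 32.3 FPKM with vehicle, 714 ± 147 with LPS (n = 2) and 306 ± 41.7 with LPS + Dex in WT cells.

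As a ratio of highest to lowest library value, Pfkfb3 had the widest range of the 10 genes, from 14.6 to 863 FPKM. In WT cells it was at 27.7, 21.4 and 25.9 FPKM with vehicle, 122, 107 and 124 with Dex, 146 and 120.0 with LPS, and 863, 561 and 389 with LPS + Dex. AMPKα1-/- libraries were at 17.9, 14.6 and 19.2 FPKM with vehicle, 55.7, 35 and 83.4 with Dex, 71.9, 128 and 60.3 with LPS, and 465, 597 and 433 with LPS + Dex. LPS + Dex did not overlap any other group in either genotype, and Dex alone overlapped LPS alone. Against vehicle the combination was 22.2-fold higher in WT (log2 4.47 ± 0.30, adjusted p = 5.73e-13) and 27.3-fold higher in AMPKα1-/- cells (log2 4.77 ± 0.30, adjusted p = 1.46e-13). Dex raised Pfkfb3 4.58-fold without LPS and 4.30-fold with LPS in WT cells, a difference of −0.09 ± 0.45 on the log2 scale that changed sign with centring (0.074). In AMPKα1-/- cells the corresponding increases were 3.07-fold and 5.94-fold, a difference of 0.95 ± 0.42 (adjusted p = 0.0957) that passed without Dex replicate 3 (1.25, adjusted p = 0.0276) or LPS replicate 2 (1.27, adjusted p = 0.0229). DAMPs + Dex gave 153, 123 and 198 FPKM in WT and 152, 106 and 217 FPKM in AMPKα1-/- cells, against 41.4, 29.4 and 25.4 and 22.6, 24.2 and 32.4 FPKM with DAMPs alone, so the groups did not overlap (log2 2.27 ± 0.30 and 2.50 ± 0.30).

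Of 6 other genes that set fructose 1,6- and 2,6-bisphosphate, 4 were tested (Pfkfb2, Pfkfb4, Tigar and Fbp1). Dex alone lowered Pfkfb4, another maker of fructose 2,6-bisphosphate, from 44.9, 43.2 and 43.1 to 21.9, 22.6 and 21.6 FPKM in WT cells (log2 −0.96 ± 0.13, adjusted p = 2.44e-06), and raised none of the 4 in either genotype. LPS raised Tigar, a fructose 2,6-bisphosphatase, and Fbp1, the gluconeogenic fructose 1,6-bisphosphatase, and lowered Pfkfb2 and Pfkfb4, in both genotypes. Of all genes tested, 55.7% in WT and 64.3% in AMPKα1-/- cells passed for LPS, and Dex alone raised 15.9% and 11.9%. Fbp1 was at 2.92, 2.75 and 2.31 FPKM with vehicle and at 29.9, 25.4 and 28.8 FPKM with LPS + Dex in WT cells (log2 2.99 ± 0.29). Against LPS alone the combination raised Fbp1 in WT (log2 0.96 ± 0.32, adjusted p = 0.0209), as it did Pfkfb3, and the AMPKα1-/- estimate of 0.22 ± 0.29 did not pass.

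The phosphofructokinase subunits moved apart. Pfkl, the liver-type subunit, was at 66.0, 65.1 and 81.1 FPKM with vehicle in WT cells, 265 and 279 with LPS, and 388, 367 and 422 with LPS + Dex. In AMPKα1-/- cells it was at 65.2, 58.6 and 66.0 FPKM, 271, 364 and 204, and 379, 392 and 337 with the same treatments. Vehicle was lowest in both, and LPS and LPS + Dex overlapped only in AMPKα1-/- cells. LPS raised Pfkl 3.83-fold in WT (adjusted p = 6.29e-11) and 4.25-fold in AMPKα1-/- cells (adjusted p = 9.51e-13). Dex added 0.52 ± 0.16 (adjusted p = 0.0134) and 0.44 ± 0.15 (adjusted p = 0.0184) on the log2 scale to LPS. Without AMPKα1-/- LPS replicate 3 the second value was 0.23 (adjusted p = 0.224), and it was 0.42 and 0.39 without LPS + Dex replicate 1 and 2 (adjusted p = 0.0551 and 0.0693). It did not pass either with only the groups compared (adjusted p = 0.136). Without WT LPS replicate 2 or 3 the first was 0.49 or 0.56 (adjusted p = 0.0985 and 0.05). Dex also raised Pfkl on top of DAMPs (WT log2 0.70 ± 0.15, AMPKα1-/- 0.56 ± 0.15), and its change with Dex alone did not pass (0.02 ± 0.15 and 0.28 ± 0.15).

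Pfkp, the platelet-type subunit, fell with Dex alone and with Dex on LPS. With Dex on DAMPs its change did not pass in WT (log2 −0.09 ± 0.15, limma adjusted p = 0.705) or AMPKα1-/- cells (−0.27 ± 0.15, adjusted p = 0.188), and the groups overlapped. The falls are given first by library. Pfkp was at 61.7, 67.4 and 70.5 FPKM with vehicle in WT cells, 50.3, 51.5 and 49.6 with Dex, 95.4 and 144 with LPS, and 61.9, 61.4 and 56.1 with LPS + Dex. The AMPKα1-/- values were 69.3, 85.2 and 77.1 FPKM with vehicle, 49.98, 50.5 and 50.7 with Dex, 87.3, 119.7 and 82.3 with LPS, and 73.6, 79.2 and 56.3 with LPS + Dex. All Dex libraries lay below vehicle and all LPS + Dex libraries below LPS. Adding Dex to LPS lowered it by 0.96 ± 0.16 in WT (adjusted p = 2.83e-05) and by 0.46 ± 0.15 in AMPKα1-/- cells (adjusted p = 0.0135) on the log2 scale. The AMPKα1-/- fall did not pass without LPS + Dex replicate 3 (−0.31, adjusted p = 0.12) or without LPS replicate 2 (−0.29, adjusted p = 0.135), nor with quantile normalization (−0.28, adjusted p = 0.112) or only the groups compared (adjusted p = 0.0927). Dex alone lowered it by 0.39 ± 0.15 in WT (adjusted p = 0.0419) and by 0.60 ± 0.15 in AMPKα1-/- cells (adjusted p = 0.00233) on the log2 scale. The WT call was lost without any of the 3 Dex libraries or vehicle replicate 2 or 3 (−0.35 without the last), and with no filter (adjusted p = 0.0757). For LPS against vehicle Pfkp passed in WT (0.81 ± 0.16) and not in AMPKα1-/- cells (0.30 ± 0.15, adjusted p = 0.0707). With the replicate number as a block, which paired the AMPKα1-/- libraries, that change passed (0.30, adjusted p = 0.0287), as it did with centring (0.58, adjusted p = 0.00115), without LPS replicate 3 (0.41) and without vehicle replicate 2 (0.37). Part of Pitrm1 lies on the opposite strand of Pfkp, with a mean of 11.9 FPKM, or 18.6% of the Pfkp mean. Whether counting used strand was not given in the sources used here, so reads of the 2 genes may not be told apart.

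As a share of Pfkl + Pfkp, Pfkp was 48.6% ± 2.18 with vehicle, 41.5% ± 3.50 with Dex, 30.2% ± 5.35 (n = 2) with LPS and 13.3% ± 1.36 with LPS + Dex in WT cells (SD, n = 3 elsewhere). The same order held in AMPKα1-/- cells, at 54.9% ± 3.98, 39.6% ± 1.40, 25.9% ± 2.41 and 15.8% ± 1.30. Across genotypes the share changed by −23.6 points with LPS, −11.2 points with Dex, −13.5 points with LPS + Dex against LPS and −13.6 points with DAMPs + Dex against DAMPs (exact permutation p = 0.005 each, adjusted 0.00714). With DAMPs alone it changed by −5.00 points (exact permutation p = 0.035, adjusted 0.0389). That call was lost without any of 8 of the 12 libraries: AMPKα1-/- DAMPs replicate 1 or 3, AMPKα1-/- vehicle replicate 2 or 3 and WT replicates 2 or 3 with DAMPs and 1 or 2 with vehicle. The muscle-type subunit Pfkm was at 4.17 to 10.8 FPKM on average in the 12 groups and is left out of this sum.

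**Figure D3:**
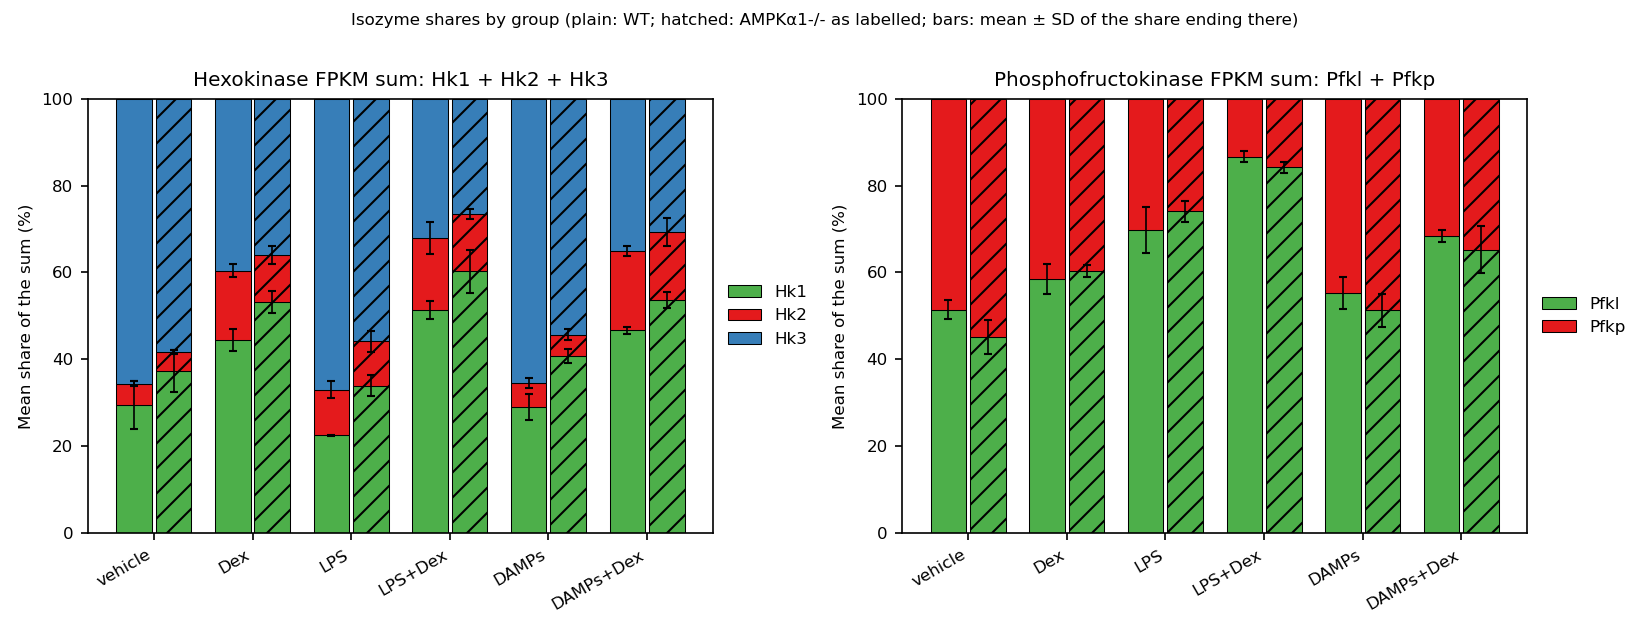
Mean share of each hexokinase gene in Hk1 + Hk2 + Hk3 (left) and of Pfkl and Pfkp in their sum (right), in percent of FPKM by treatment, WT plain and AMPKα1-/- hatched, with the SD over libraries at the end of each segment. The Hk3 segment is smaller in each group with Dex than in the same group without it, and Pfkp falls to 13.3% with LPS + Dex in WT.

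The lower steps and lactate dehydrogenase rose with LPS except Pkm, and fell with Dex alone. Pgk1, which makes the first ATP of the payoff phase, was at 252, 234 and 288 FPKM with vehicle in WT cells, 119, 108 and 127 with Dex, 746 and 765 with LPS, and 587, 579 and 658 with LPS + Dex. AMPKα1-/- libraries were at 286, 293 and 273 FPKM with vehicle, 179.7, 192 and 171 with Dex, 879.6, 898 and 570.4 with LPS, and 753, 701 and 616 with LPS + Dex. Every Dex library was below vehicle and every library with LPS above it. LPS raised Pgk1 2.93-fold in WT and 2.69-fold in AMPKα1-/- cells, and Dex alone lowered it 2.18-fold (adjusted p = 7.17e-08) and 1.57-fold (adjusted p = 0.000206). The change of LPS + Dex against LPS did not pass (−0.32 ± 0.14, adjusted p = 0.0814, and −0.16 ± 0.12, adjusted p = 0.354). Without AMPKα1-/- LPS replicate 3 it was −0.37 in that genotype (adjusted p = 0.00737).

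Ldha was at 619, 712 and 758 FPKM with vehicle in WT cells, 367, 283 and 357 with Dex, 1538 and 1554 with LPS, and 1519, 1621 and 1698 with LPS + Dex. AMPKα1-/- libraries were at 644, 751 and 679 FPKM with vehicle, 408, 543 and 403 with Dex, 1707, 2139.6 and 813 with LPS, and 1947, 1973 and 1344 with LPS + Dex. LPS and LPS + Dex overlapped in both genotypes. LPS raised Ldha 2.23-fold in WT (adjusted p = 0.00014) and 2.08-fold in AMPKα1-/- cells (adjusted p = 8.55e-05), and Dex alone lowered it 2.08-fold (adjusted p = 0.000351) and 1.54-fold (adjusted p = 0.0267). The last was lost with centring (−0.54, adjusted p = 0.0778), with no filter (adjusted p = 0.0618) and without Dex replicate 1 or 3 or vehicle replicate 2 or 3 of that genotype. On top of LPS, Dex moved it by 0.06 ± 0.24 and 0.27 ± 0.21 on the log2 scale, which did not pass. The second value was −0.15 without AMPKα1-/- LPS replicate 3, but passed as a rise without LPS replicate 2 (0.55, adjusted p = 0.0365) and with quantile normalization (0.53, adjusted p = 0.0447). With DAMPs present Dex lowered it from 498, 583 and 666 to 369.9, 380.3 and 370.3 FPKM in WT (log2 −0.63 ± 0.21, adjusted p = 0.0285), a call lost with no filter (adjusted p = 0.0661) and without any of these 6 libraries except DAMPs replicate 1. In AMPKα1-/- cells the values went from 558, 596 and 544 to 351, 413 and 376 FPKM (log2 −0.58 ± 0.21, adjusted p = 0.0443), a call that was lost whichever of these 6 libraries was left out, with no filter (adjusted p = 0.099) and with quantile normalization (−0.41, adjusted p = 0.147).

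Pkm, which encodes the pyruvate kinase of most tissues, did not pass the test for LPS. It was at 778, 938 and 873 FPKM with vehicle in WT cells, 963 and 862 with LPS, 829.8, 1111 and 868 with LPS + Dex, and 357, 380.3 and 362 with Dex. AMPKα1-/- libraries were at 919, 1118 and 1322 FPKM with vehicle, 1180.2, 1366 and 954 with LPS, 1105, 1196 and 1375 with LPS + Dex, and 489, 734 and 650.2 with Dex. The Dex libraries were the low ones in both genotypes, and the other 3 groups overlapped. Dex lowered Pkm 2.35-fold in WT (log2 −1.23 ± 0.17, adjusted p = 2.00e-06) and 1.80-fold in AMPKα1-/- cells (adjusted p = 0.000297). The change with LPS was 0.08 ± 0.19 and 0.06 ± 0.17, beside an all-gene median of −0.19 and −0.30, and with centring it was 0.23 and 0.34 (adjusted p = 0.39 and 0.14). With DAMPs present Dex lowered it by 0.93 ± 0.17 in WT (adjusted p = 9.72e-05) and by 0.56 ± 0.17 in AMPKα1-/- cells (adjusted p = 0.0123) on the log2 scale, the second lost without DAMPs replicate 2 (−0.49, adjusted p = 0.0683) or DAMPs + Dex replicate 3 (−0.51, adjusted p = 0.0554). Gene totals do not separate the PKM1 and PKM2 transcripts.

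The Dex response of the same genes was compared with and without LPS, a contrast chosen after the data were seen. In WT cells 6 of the 10 genes differed (32.0% of all genes did, 14.9% higher and 17.1% lower), and in AMPKα1-/- cells 5 of the 10 (28.4%, 15.5% higher and 12.8% lower). Ldha, Pkm and Pgk1 fell with Dex alone and much less or not at all with Dex on LPS, so their differences were positive, at 1.11 ± 0.32, 1.26 ± 0.25 and 0.81 ± 0.19 in WT (adjusted p = 0.00817, 0.000322 and 0.00148). The AMPKα1-/- differences were 0.89 ± 0.30, 0.93 ± 0.24 and 0.49 ± 0.18 (adjusted p = 0.0248, 0.00349 and 0.0351). Those of Ldha and Pgk1 did not pass with centring (0.81, adjusted p = 0.0604, and 0.42, adjusted p = 0.161), no filter (adjusted p = 0.0558 and 0.0606) or only the groups compared (adjusted p = 0.13 and 0.119). Hk2 and Slc2a1 had negative differences in both genotypes, Hk2 of −1.38 ± 0.32 and −1.02 ± 0.30 (adjusted p = 0.00141 and 0.0106) and Slc2a1 of −0.69 ± 0.22 and −0.58 ± 0.21 (adjusted p = 0.0201 and 0.0403). Neither Slc2a1 difference passed with quantile normalization (−0.36, adjusted p = 0.184, and −0.40, adjusted p = 0.137), the WT one also failed with only the groups compared (adjusted p = 0.0847) and the AMPKα1-/- one with no filter (adjusted p = 0.0742). Pfkp passed in WT (−0.57 ± 0.22, adjusted p = 0.0471) and not in AMPKα1-/- cells (0.14 ± 0.21, adjusted p = 0.658), and whether this separates the genotypes was not tested. With centring the WT differences of Slc2a1 (−0.53, adjusted p = 0.0579) and Pfkp (−0.40, adjusted p = 0.154) did not pass, that of Pfkl did (0.67, adjusted p = 0.0325), and the higher share of all WT calls moved from 46.5% to 56.7% (AMPKα1-/- from 54.7% to 49.95%). The WT Pfkp difference also failed with quantile normalization (−0.35, adjusted p = 0.2), only the groups compared (adjusted p = 0.0671) and no filter (adjusted p = 0.0783). Pfkl also passed with quantile normalization (0.62, adjusted p = 0.0338) and without Dex replicate 3 (0.61), and Hk3 without LPS replicate 2 (−0.97), LPS + Dex replicate 2 (−0.85) or vehicle replicate 3 (−0.84). Without WT LPS replicate 3 the Slc2a1 and Pfkp differences were −0.52 and −0.27 (neither passed), and Pfkp was lost without any of 7 other WT libraries (−0.52 without LPS + Dex replicate 3, adjusted p = 0.0944) and Slc2a1 without either of Dex replicate 3 and vehicle replicate 2. Without AMPKα1-/- LPS replicate 3 the positive differences of Ldha (0.48, adjusted p = 0.104) and Pgk1 (0.28, adjusted p = 0.159) no longer passed, and Pkm did (0.79, adjusted p = 0.0164). The AMPKα1-/- calls of Slc2a1, Pgk1 and Ldha were lost without any 1 of 6, 7 and 6 of the 12 libraries, among them Dex replicates 1 and 3 for each gene. For Slc2a1 the difference was −0.47 without LPS replicate 2 (adjusted p = 0.119) and −0.47 without LPS + Dex replicate 3 (adjusted p = 0.119), while Hk2 and Pkm passed whichever library was left out.

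**Figure D4:**
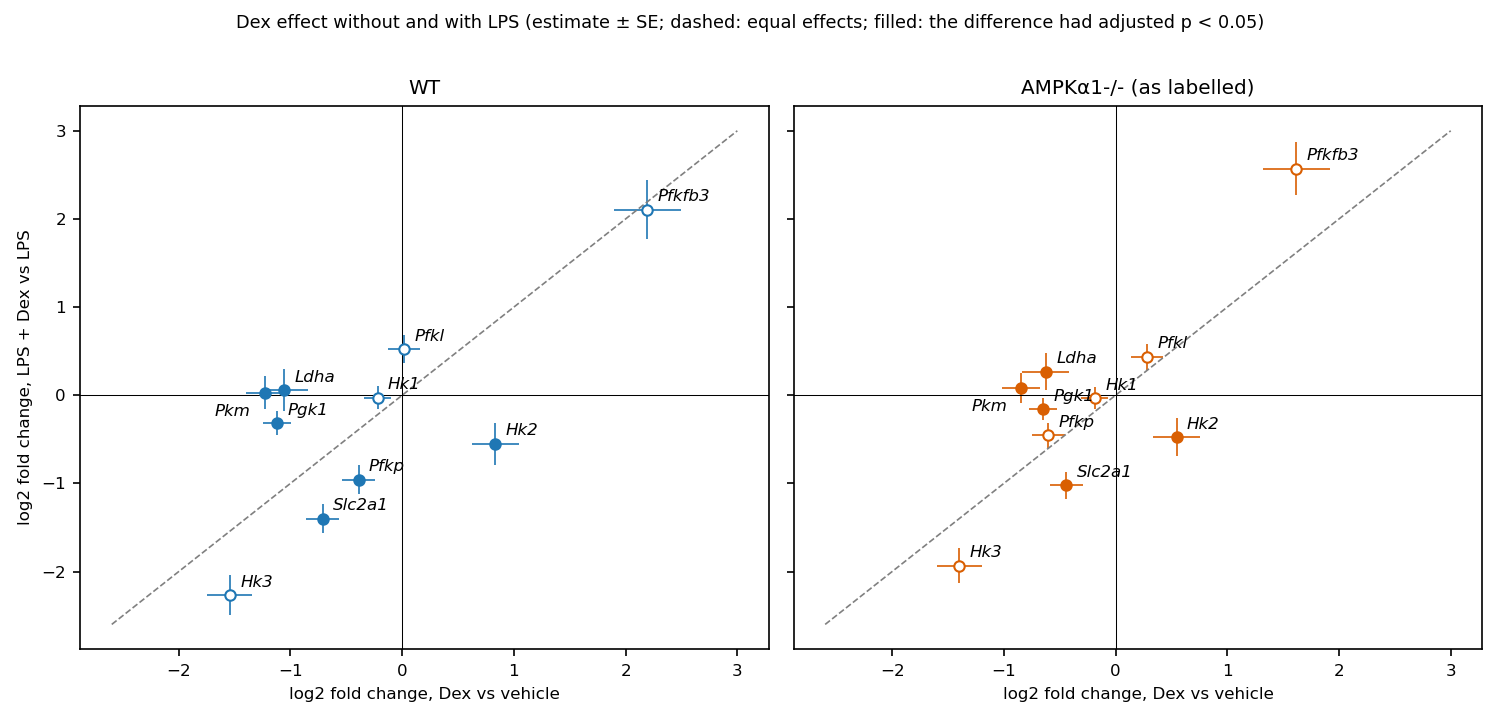
Log2 fold change of each gene with Dex against vehicle (horizontal) and with LPS + Dex against LPS (vertical), ± SE, for WT (left) and AMPKα1-/- (right), with filled points where the difference of the 2 responses had an adjusted p below 0.05. Pkm, Ldha and Pgk1 lie above the dashed line of equal responses, and Hk2 and Slc2a1 below it.

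The responses were compared between WT libraries and those labelled AMPKα1-/-, whose Prkaa1 level did not check the label. None of the 10 genes passed in any of 5 genotype differences, and neither did any of the 11354 genes tested (0.0%). Genes with an unadjusted p below 0.05 (limma) numbered 2441 for Dex against vehicle and 514 for LPS against vehicle. They numbered 311 for LPS + Dex against LPS, 66 for DAMPs against vehicle and 234 for DAMPs + Dex against DAMPs. The lack of calls does not show equal responses, least of all for Dex alone. Among the 10 genes, Pgk1 had the smallest p for the Dex response (difference 0.47 ± 0.18, unadjusted p = 0.012, adjusted p = 0.194), and Pfkp for LPS against vehicle (−0.51 ± 0.22, unadjusted p = 0.0278, adjusted p = 0.947) and for LPS + Dex against LPS (0.50 ± 0.22, adjusted p = 1). For the DAMPs responses the differences ran from −0.21 ± 0.28 (Hk3) to 0.26 ± 0.42 (Pfkfb3), and for DAMPs + Dex against DAMPs from −0.17 ± 0.21 (Pfkp) to 0.41 ± 0.28 (Hk3). The SEs of these differences ran from 0.17 to 0.45, so differences of such size were not detectable with 2 or 3 libraries a group. With vehicle alone 49 of all genes tested (0.432%) differed between genotypes and none of the 10. The estimates ran from −0.51 ± 0.30 for Pfkfb3 to 0.36 ± 0.17 for Pkm. Among the further pathway genes with vehicle, Txnip was at 499, 526 and 433 FPKM in WT and 249, 239 and 182 FPKM in AMPKα1-/- cells (log2 −1.13 ± 0.17, adjusted p = 0.000241), and Eno1 at 513, 584 and 594 against 899, 997 and 925 FPKM (log2 0.74 ± 0.16, adjusted p = 0.0291). Arrdc4, from the same list as Txnip, was also lower in AMPKα1-/- cells (log2 −1.22 ± 0.18, limma adjusted p = 0.000319).

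Genes around the 10 were read from the same fit. Of 19 other glycolytic enzyme genes 13 were tested. LPS raised 5 and lowered 4 in WT, and raised 6 and lowered 5 in AMPKα1-/- cells, while Dex alone raised 1 and lowered 8 in WT and raised 2 and lowered 4 in AMPKα1-/- cells. Of all genes tested, 55.7% in WT and 64.3% in AMPKα1-/- cells passed for LPS, and 30.9% and 27.9% for Dex alone. With vehicle in WT, Eno1, an enolase, was at 513, 584 and 594 FPKM and rose to 1246 and 1263 with LPS (log2 1.16 ± 0.18, adjusted p = 3.97e-06). The lactate dehydrogenase subunit Ldhb went against Ldha. It fell from 35.7, 31.1 and 30.3 FPKM with vehicle to 2.27 and 3.32 with LPS in WT, and stood at 18.5, 22.4 and 21.0 with LPS + Dex (log2 2.52 ± 0.19 against LPS, adjusted p = 1.91e-11). Aldoc, an aldolase, fell with Dex from 9.94, 13.2 and 16.0 to 1.95, 1.21 and 2.74 FPKM (log2 −2.25 ± 0.46). For LPS + Dex against LPS, 4 of the 13 enzymes in WT and 6 in AMPKα1-/- cells were higher and none lower. Of all genes tested, 16.6% and 19.3% were higher there and 17.5% and 18.4% lower.

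Of 10 other glucose transporters listed, 4 were tested. LPS raised 1 of them and lowered 2 in WT and 3 in AMPKα1-/- cells, and Dex alone raised 1 and lowered 1 in each. The all-gene shares passing in WT and AMPKα1-/- cells were 55.7% and 64.3% for LPS, and 30.9% and 27.9% for Dex alone. Slc2a6, a transporter of intracellular membranes, rose with LPS and fell with Dex, alone and on LPS, in both genotypes, as Slc2a1 did. It was at 26, 35 and 37 FPKM with vehicle, 226 and 227 with LPS, and 92.9, 85.4 and 94.0 with LPS + Dex in WT cells (log2 2.77 ± 0.20 for LPS and −1.31 ± 0.20 for Dex on LPS), and Dex alone changed it by −1.37 ± 0.17 in WT and −1.16 ± 0.17 in AMPKα1-/- cells. Slc2a3 (GLUT3) went the other way, from 7.55, 9.29 and 5.62 FPKM with vehicle to 27.5, 28.7 and 22.9 with Dex (log2 1.71 ± 0.33, adjusted p = 0.000231), and fell with LPS (−1.30 ± 0.37). Of 4 lactate export genes, all tested, LPS raised 3 and lowered 1, and Dex on LPS lowered 2, in both genotypes (Dex on LPS lowered 17.5% of all genes tested in WT and 18.4% in AMPKα1-/- cells). The lactate exporter Slc16a3 (MCT4) rose from 54.1, 60.9 and 63.1 to 299 and 358 FPKM with LPS in WT and stood at 172, 169 and 255 with LPS + Dex, a fall of 0.75 ± 0.29 on the log2 scale (adjusted p = 0.0468).

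Among 13 regulators of transcription and uptake, 12 were tested. LPS raised 5 and lowered 3 in WT and raised 5 and lowered 5 in AMPKα1-/- cells, and Dex alone raised 3 and lowered 1 in WT and raised 2 and lowered 1 in AMPKα1-/- cells. The all-gene shares passing in WT and AMPKα1-/- cells were 55.7% and 64.3% for LPS, and 30.9% and 27.9% for Dex alone. Hif1a, the oxygen-regulated factor that drives many glycolytic genes, rose from 23.8, 20.2 and 23.2 FPKM with vehicle to 136 and 122 with LPS in WT, and was at 78.1, 60.3 and 47.6 with LPS + Dex. The groups did not overlap, and LPS raised it by 2.48 ± 0.25 and Dex lowered it on LPS by 1.07 ± 0.25 on the log2 scale (adjusted p = 1.64e-09 and 0.00106). With Dex alone it was at 28.1, 22.6 and 23.8 FPKM, overlapping vehicle. Ddit4, an inhibitor of mTORC1 signalling, rose from 2.19, 1.94 and 2.70 to 464, 528 and 569.8 FPKM with Dex (log2 7.31 ± 0.25). Txnip, which restrains glucose uptake, fell with LPS from 499, 526 and 433 to 125 and 67.3 FPKM (log2 −2.39 ± 0.19). Myc, a growth factor-responsive activator of glycolytic genes, fell with Dex alone in both genotypes (−1.59 ± 0.23 and −1.90 ± 0.23). It also fell with Dex on DAMPs (−0.65 ± 0.23 and −0.83 ± 0.23). Its Dex response with LPS minus that without was 2.04 ± 0.34 in WT and 2.56 ± 0.32 in AMPKα1-/- cells (limma adjusted p = 4.6e-05 and 6.7e-07). These differences exceed the falls with Dex alone, so the estimates for Dex on LPS were not falls.

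**Figure D5:**
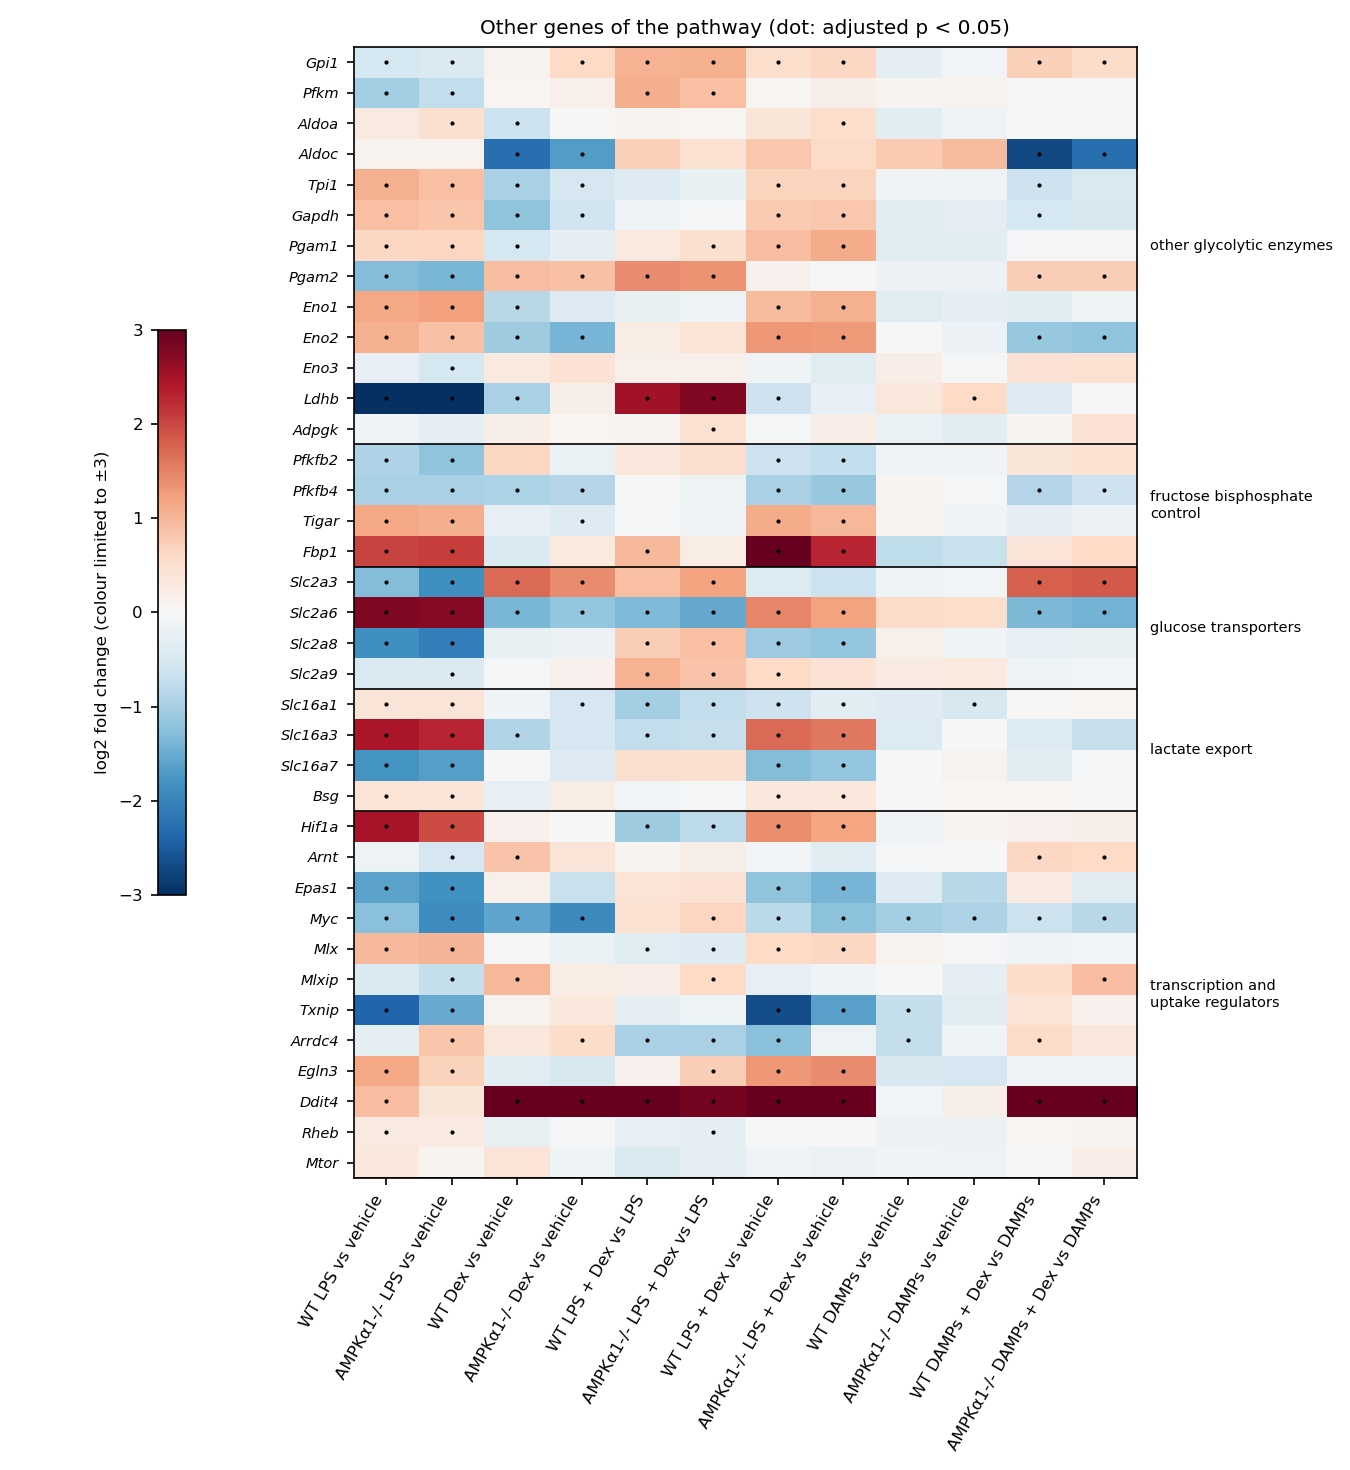
Log2 fold change (colour, limited to ±3) of the other pathway genes that passed the filter, by comparison and genotype, with a dot where the adjusted p was below 0.05. Ddit4 is deep red wherever Dex was added, Ldhb is blue with LPS, and the DAMPs columns have few dots.

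Genes of cell division moved with some of the same treatments. The summed level of 6 cell cycle genes was 53.9 to 103 FPKM with vehicle in WT cells, 40.7 to 47.3 with Dex, 47.4 to 49.1 with LPS, 23.6 to 37.1 with LPS + Dex and 31.9 to 67.1 with DAMPs. In AMPKα1-/- cells it was 88.0 to 149 FPKM with vehicle and 36.4 to 41 with Dex. Dex alone lowered 3 of the 6 in WT and 6 of the 6 in AMPKα1-/- cells, and LPS lowered 5 and raised 1 in each. Of all genes tested in WT and AMPKα1-/- cells, Dex alone lowered 14.9% and 16.0%, LPS 35.8% and 44.1%, and DAMPs 0.793% and 2.24%. DAMPs lowered 2 of the 6 cell cycle genes in WT and 6 of the 6 in AMPKα1-/- cells (median log2 change −0.82 and −1.49), where the summed level was 37.8 to 41.5 FPKM. Their part in the falls of Slc2a1, Pgk1, Pkm and Ldha was not tested.

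Across the 12 group means the 10 genes fell into different orders. Slc2a1, Hk2, Hk3 and Pfkp were highest in the WT LPS group, Hk1 and Pgk1 in the AMPKα1-/- LPS group, Pfkfb3 and Pfkl in WT LPS + Dex, and Pkm and Ldha in AMPKα1-/- LPS + Dex. The ratio of the highest to the lowest group mean was 35.1 for Pfkfb3, 9.24 for Hk3, 6.71 for Pfkl, 6.64 for Pgk1, 6.34 for Slc2a1, 6.11 for Hk2, 5.23 for Ldha, 3.54 for Pkm, 2.63 for Pfkp and 2.46 for Hk1. Neighbours at the top did not always separate: Ldha was 1754 ± 356 FPKM in AMPKα1-/- LPS + Dex, and the WT LPS + Dex libraries at 1519 to 1698 lay within that spread. The gene whose 12 group means tracked each member best, as a description, was Dennd4a for Pfkfb3 (Pearson r = 0.985), Tes for Slc2a1 (0.987), Smpdl3b for Hk1 (0.996), Snapc1 for Hk2 (0.974), Vps29 for Hk3 (0.987), Mtfr1l for Pfkl (0.988), Mki67 for Pfkp (0.958), Hax1 for Pgk1 (0.994), Ywhab for Pkm (0.971) and Mrps28 for Ldha (0.991). These points share libraries and treatments, and Mki67 is one of the 6 cell cycle genes summed above. The sum of those 6 did not follow Pfkp. In WT it was 53.9 to 103 FPKM with vehicle and 47.4 to 49.1 with LPS, where Pfkp was highest.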

How the data were processed

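Per the submitters' processing notes, reads were processed with Bowtie2 2.2.3, TopHat2 2.0.12, HTSeq 0.6.1 and DESeq2 on GRCm38 (mm10), with no roles or order given. The authors deposited 1 table of FPKM per library, and strand use and annotation release were not given in the sources used here. Files held 47069 Ensembl IDs, of which 46488 matched a symbol in GENCODE M21. Only 55.0% to 63.6% of values under 10 fragments were whole multiples of 1 fragment (tolerance 0.001 fragments), so no count test was run. One fragment was worth 0.0313 to 0.0631 FPKM per kilobase.

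Genes with a mean of at least 1 FPKM were fitted on log2(FPKM + 1) with limma 3.58.1 (R 4.3.3, trended variance) over all 12 groups, and p-values were adjusted by Benjamini-Hochberg. Isozyme shares used exact permutation within genotype. Of several RefSeq starts, that nearest the GENCODE gene start was used for promoters, and copies of each gene were sought with blastn 2.17.0 at 95% identity over 100 bases. Names were drawn from the 10 genes, the check and marker lists, the 3 largest called changes per other list and comparison, and the best-tracking gene of each member. The 10 genes and all lists were chosen with earlier results of these data known. The fit was repeated with 0.1 in place of 1 added to FPKM, without the filter or with a minimum mean of 5 FPKM, after median centring or quantile normalization, on only the groups compared, with a replicate block, and without each library in turn. Same-numbered libraries deviated together in AMPKα1-/- cells (r from 0.124 to 0.400 for every pair in LPS against vehicle, Dex against vehicle, and LPS + Dex against LPS or vehicle), and not in every pair in WT cells or with DAMPs. The study's methods describe cultures as coming from separate animals except where noted, and the labels tie no library to a mouse.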

Additional observations from a re-analysis of the deposited data

Results flagged for a closer look

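The difference between the Dex response with LPS and without LPS passed the test of the difference itself for 6 genes in WT and 5 in AMPKα1-/- cells (limma, adjusted p below 0.05, a contrast chosen after the data were seen). Of all genes tested, 32.0% passed it in WT and 28.4% in AMPKα1-/- cells. In WT cells the differences on the log2 scale were −1.38 for Hk2, −0.69 for Slc2a1, −0.57 for Pfkp, 0.81 for Pgk1, 1.26 for Pkm and 1.11 for Ldha. In AMPKα1-/- cells they were −1.02 for Hk2, −0.58 for Slc2a1, 0.49 for Pgk1, 0.93 for Pkm and 0.89 for Ldha. The AMPKα1-/- differences of Pgk1 and Ldha did not pass with centring (adjusted p = 0.161 and 0.0604), no filter (adjusted p = 0.0606 and 0.0558) or only the groups compared (adjusted p = 0.119 and 0.13). That of Slc2a1 did not pass with quantile normalization (adjusted p = 0.137) or no filter (adjusted p = 0.0742). The WT differences of Slc2a1 and Pfkp did not pass with centring (adjusted p = 0.0579 and 0.154), quantile normalization (adjusted p = 0.184 and 0.2) or only the groups compared (adjusted p = 0.0847 and 0.0671), and that of Pfkp did not with no filter (adjusted p = 0.0783). Groups had 3 libraries or fewer, and single libraries were not tested as outliers.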

How the results depend on the processing

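Called values of single genes kept direction and side of the threshold in 557 refits under other settings and lost the call in 31. Leaving out 1 library kept 479 and lost 71. No called value changed sign. With the replicate number as a block, members called for DAMPs against vehicle rose from 1 to 3 in WT and from 1 to 4 in AMPKα1-/- cells. Fitting only the groups compared gave 0 in both, and 3 instead of 5 for AMPKα1-/- LPS + Dex against LPS. No filter or centring gave 0 for DAMPs in AMPKα1-/- cells. For the Dex response with LPS minus that without in AMPKα1-/- cells, no filter gave 2 instead of 5, and centring or only the groups compared gave 3. Where the numbers paired libraries, the block changed 1 call (Pfkp, above). Elsewhere it ended none and added 8, among them Pgk1 for LPS + Dex against LPS in WT (−0.30, adjusted p = 0.0472, 2 pairs with r = 0.113 and 0.429) and the WT difference in Dex response of Pfkl (0.56, adjusted p = 0.0324). Leaving out 1 library gave 0 to 1 members for DAMPs in WT, 0 to 2 in AMPKα1-/- cells, 4 to 5 instead of 6 for DAMPs + Dex against DAMPs in AMPKα1-/- cells, and 2 to 5 for the AMPKα1-/- and 4 to 7 for the WT difference in Dex response. The Pfkp share with DAMPs ran from −6.03 to −3.91 points and the Hk2 share for LPS + Dex against LPS from 3.56 to 5.40 points. The causes were not tested.

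Estimates that did not pass changed sign as follows. Centring gave −0.070 for Pfkl with Dex in WT, 0.048 for Hk1 with LPS + Dex against LPS in WT, 0.075 and 0.13 for Pfkp with LPS + Dex against vehicle in WT and AMPKα1-/- cells, 0.047 for Hk2 with DAMPs in AMPKα1-/- cells and 0.074 for the Pfkfb3 difference in WT. Quantile normalization gave 0.088 and 0.13 for Hk1 with LPS + Dex against LPS in WT and AMPKα1-/- cells, 0.018 for Hk3 with DAMPs in WT, 0.066 for Hk2 with DAMPs in AMPKα1-/- cells and 0.030 for the Pfkfb3 difference in WT. The block gave 0.0017 for Hk1 with LPS + Dex against LPS in WT. Leaving out 1 library, LPS + Dex against LPS ran from −0.23 to 0.18 (Hk1) and −0.10 to 0.11 (Pkm) in WT, and from −0.10 to 0.054 (Hk1), −0.15 to 0.55 (Ldha) and −0.057 to 0.20 (Pkm) in AMPKα1-/- cells. DAMPs against vehicle ran from −0.10 to 0.071 (Hk1) and −0.17 to 0.10 (Hk3) in WT and from −0.086 to 0.10 (Hk1) and −0.14 to 0.20 (Hk2) in AMPKα1-/- cells. Pfkl with Dex in WT ran from −0.083 to 0.12, Pkm with LPS in AMPKα1-/- cells from −0.074 to 0.20, Pkm with LPS + Dex against vehicle in WT from −0.019 to 0.19, and Slc2a1 with DAMPs + Dex against DAMPs in WT from −0.057 to 0.11. The differences in Dex response ran from −0.0094 to 0.40 (Hk1) and −0.38 to 0.19 (Pfkfb3) in WT and from −0.048 to 0.37 (Pfkl) in AMPKα1-/- cells.

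Over all genes, only the groups compared gave 1 instead of 228 calls for DAMPs in WT (26 to 372 leaving out 1 library) and 2065 instead of 3871 for WT LPS + Dex against LPS. For DAMPs in AMPKα1-/- cells, leaving out 1 library gave 267 to 453 calls instead of 469. Between genotypes with vehicle the 49 calls became 19 with only these groups, 92 with no filter, 27 with a mean of at least 5 FPKM and 83 with the block. Without 1 library they numbered 28 to 58. With no filter, 118, 21, 75, 2 and 9 genes passed the 5 genotype differences, against 0, while other settings gave at most 5 and leaving out 1 library at most 13.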
